A study of Homo sapiens with 6 samples.

Results

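Transcript levels of 10 genes of protein folding in the endoplasmic reticulum (ER) were compared between 3 related human lung adenocarcinoma lines: PC9, which has an activating EGFR mutation, and the sublines PC9-BrM4 and PC9-AMG derived from it. The genes were chosen by name for their role, with earlier results of these data known, from 26485 gene symbols. They are the chaperones HSPA5, HSP90B1 and HYOU1, the lectin chaperones CALR and CANX, the disulfide isomerase PDIA4, the co-chaperones DNAJB9 and SDF2L1, the degradation factor HERPUD1 and the transcription factor XBP1. All 10 exceeded 20 TPM (transcripts scaled to a fixed total per library) in each of the 6 libraries, and all 10 passed the filter for testing, which kept 14195 genes.

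Each line was grown in ordinary culture, with no drug, knockdown or transgene named in the labels, and gave 2 libraries of bulk messenger RNA. PC9-BrM4 is known outside these labels as a subline that was selected for metastasis to the brain. No source used here gives the meaning of AMG. Whether the libraries of a line came from separate cultures is not stated, so the p-values rest on the spread between these samples alone, and that spread may be technical. The PC9-AMG tables are named EMG, not AMG, and they were assigned to this line by the sample records alone. In bulk RNA, a change in the share of cells that express a gene and a change per cell cannot be told apart.

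The ER lumen is where secreted and membrane proteins fold. HSPA5 (BiP, GRP78) binds unfolded chains there in cycles set by J-domain partners such as DNAJB9 and DNAJB11, and HSP90B1 (GRP94) acts later on a smaller set of clients. When unfolded chains build up, the sensors IRE1 (gene ERN1), ATF6 and PERK (gene EIF2AK3) start the unfolded protein response. IRE1 splices the XBP1 mRNA, whose product then drives co-chaperone and degradation genes, ATF6 drives HSPA5 and its partners, and PERK acts through ATF4 and CHOP (gene DDIT3). Gene totals such as those used here do not separate spliced from unspliced XBP1. Plasma cells are the classical example of a cell rich in these proteins.

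Aligned sequence came to an estimated 2.66 to 4.39 gigabases per library, and 13455 to 13764 genes reached 1 TPM. Log2 levels correlated across genes, which are not independent replicates, at 0.994 to 0.996 for replicates and at 0.964 to 0.974 for libraries of different lines. The 5 epithelial markers (EPCAM, KRT8, KRT18, KRT19, CDH1) were detected in all libraries and summed to 7553 to 11198 TPM. None of 4 lung lineage markers (NKX2-1, SFTPB, SFTPC, NAPSA) reached 1 TPM in all libraries of a line, and NKX2-1 was listed at 0 in PC9 and PC9-BrM4. Of 5 leukocyte markers and 4 astrocyte or neuron markers, 0 reached 1 TPM in all libraries of a line, and 5 fibroblast or endothelial markers had a summed level of 8.82 to 9.36 TPM in the PC9 libraries, 5.99 to 6.70 TPM in those of PC9-BrM4 and 19.5 to 19.98 TPM in those of PC9-AMG. Of these markers 3 were tested and 2 were called higher in PC9-AMG compared with PC9 (median 0.53), and their part in the results was not tested. Of 5 plasma cell markers, SDC1, which epithelial cells also express, was the one detected, while JCHAIN and MZB1 were listed at 0.

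The promoters of these genes are known for the ER stress response element (ERSE), a pair of short boxes: CCAAT, bound by NF-Y, then 9 bases of any kind, then CCACG, where ATF6 and XBP1 act. A second form, ERSE-II, is ATTGG, then 1 base of any kind, then CCACG. Both were searched on both strands in the RefSeq windows from 250 bases before to 50 bases after each start (GRCh38.p14), which were found for all 10 genes. The sites are shown because 8 of the 10 genes carry 1 or 2 of them; capitals mark the boxes, lower case marks the bases between, and positions count from the start, with the base before it at -1. The XBP1, CANX and PDIA4 genes have several windows, and their first is used here.
HSPA5, -66 to -48: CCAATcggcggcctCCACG
HSP90B1, -194 to -176: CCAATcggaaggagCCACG
HSP90B1, -89 to -71, opposite strand: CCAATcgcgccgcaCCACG
CALR, -225 to -207, opposite strand: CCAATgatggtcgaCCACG
CANX, -151 to -133: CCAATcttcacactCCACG
XBP1, -52 to -34: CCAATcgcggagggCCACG
HYOU1, -185 to -175 and -79 to -69, opposite strand: ATTGGaCCACG
SDF2L1, -188 to -178, opposite strand: ATTGGtCCACG
HERPUD1, -117 to -107: ATTGGgCCACG

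The HSPA5, HSP90B1, CALR, CANX and XBP1 promoters held ERSE, and the HYOU1, SDF2L1 and HERPUD1 promoters held ERSE-II. Over all 27305 genes with a window of this length, 0.0916% held ERSE and 0.0696% held ERSE-II in any window, and 44 genes (0.161%) held either. These elements were first described in such promoters, so their presence in 8 of 10 is background and not a result of these data. The boxes alone are common, with CCAAT in 39.7% and CCACG in 42.1% of genes, and all 10 genes held both. TGACGTG, another sequence known for ATF6 and XBP1, was in 2.40% of genes and among the 10 only in HYOU1, at -188 to -182, where it overlaps the more distant ERSE-II. PDIA4 and DNAJB9 held neither element, which says only that these letters are not in this window.

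The 250 bases before the start are printed for 4 genes that span the arrangements: 1 ERSE (HSPA5), 2 ERSE (HSP90B1), 2 ERSE-II (HYOU1) and neither (DNAJB9). Each runs 5′ to 3′ on the gene's own strand, with the boxes in capitals; a site on the opposite strand reads as its reverse complement, CGTGG and ATTGG for ERSE or CGTGG and CCAAT for ERSE-II.
HSPA5, chr9:125241344-125241593, minus strand, GRCh38.p14: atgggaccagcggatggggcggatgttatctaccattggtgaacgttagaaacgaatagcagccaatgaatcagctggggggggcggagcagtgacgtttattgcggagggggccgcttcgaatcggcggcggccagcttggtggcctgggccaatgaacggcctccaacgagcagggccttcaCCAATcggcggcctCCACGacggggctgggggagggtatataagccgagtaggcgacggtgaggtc
HSP90B1, chr12:103930160-103930409, plus strand, GRCh38.p14: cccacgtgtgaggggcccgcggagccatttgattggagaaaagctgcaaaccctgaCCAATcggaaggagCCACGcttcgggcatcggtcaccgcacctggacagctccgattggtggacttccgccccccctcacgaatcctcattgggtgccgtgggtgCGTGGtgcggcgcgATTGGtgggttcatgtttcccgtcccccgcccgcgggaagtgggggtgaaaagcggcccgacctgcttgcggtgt
HYOU1, chr11:119057206-119057455, minus strand, GRCh38.p14: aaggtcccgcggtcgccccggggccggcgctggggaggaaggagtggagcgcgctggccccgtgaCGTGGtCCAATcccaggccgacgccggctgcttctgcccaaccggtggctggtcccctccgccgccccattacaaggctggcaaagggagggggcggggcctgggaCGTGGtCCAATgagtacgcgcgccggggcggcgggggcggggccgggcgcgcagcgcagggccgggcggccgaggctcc
DNAJB9, chr7:108569624-108569873, plus strand, GRCh38.p14: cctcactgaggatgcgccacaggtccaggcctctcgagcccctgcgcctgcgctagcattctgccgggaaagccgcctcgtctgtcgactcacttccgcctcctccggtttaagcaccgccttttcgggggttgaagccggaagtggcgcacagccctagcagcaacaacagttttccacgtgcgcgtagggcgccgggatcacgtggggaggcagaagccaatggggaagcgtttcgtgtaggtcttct

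**Figure D1:**
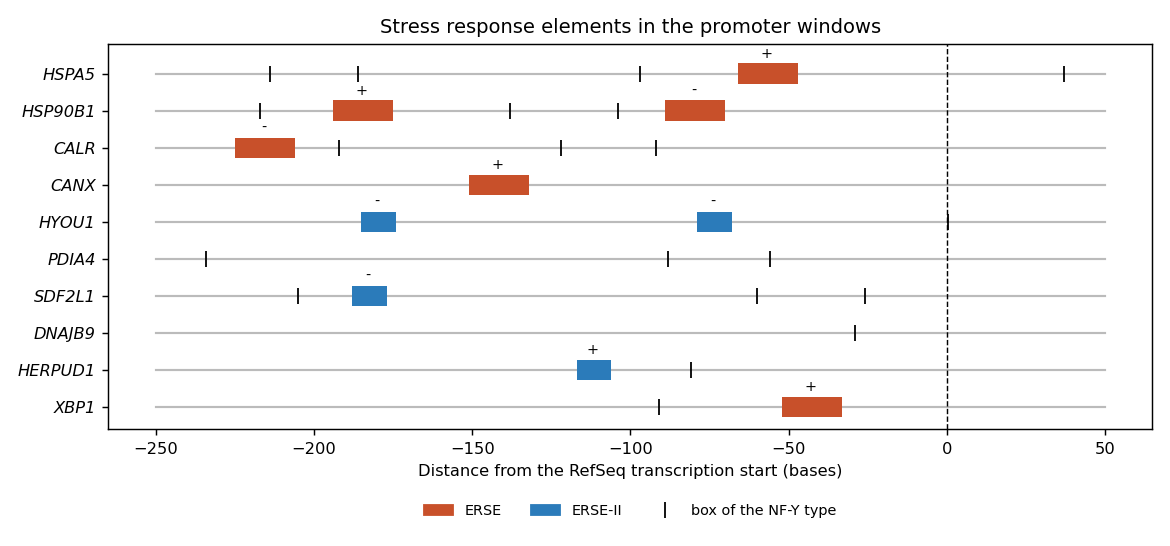
Positions of the elements in the promoter windows of the 10 genes, drawn to scale as distance from the RefSeq start in bases, 1 row per gene, with the strand above each element and single NF-Y boxes as ticks. ERSE stood between -225 and -34 in 5 genes and ERSE-II between -188 and -69 in 3, while PDIA4 and DNAJB9 showed only single boxes.

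The genes fell into an abundant and a less abundant group. TPM is a level per transcript length, so levels can be set beside each other. In PC9, HSP90B1 stood highest at 791 ± 11.5 TPM (SD, n = 2, as for all means here), followed by CALR at 739 ± 0.368, HSPA5 at 696 ± 2.09, CANX at 598 ± 4.33 and PDIA4 at 305 ± 0.423 TPM. HYOU1 followed at 113 ± 0.528 TPM and XBP1 at 63.5 ± 1.35 TPM. HERPUD1 stood at 42.5 ± 1.62, SDF2L1 at 27.8 ± 0.131 and DNAJB9 at 27.7 ± 0.494 TPM. All neighbours in this order had separate libraries except SDF2L1 and DNAJB9. PC9-BrM4 kept the order apart from CANX and HSPA5, whose libraries overlapped there. In PC9-AMG, HSPA5 moved to the first place, overlapping CALR, HSP90B1 took the third, and DNAJB9 moved above SDF2L1. The libraries of XBP1 and HERPUD1 overlapped in PC9-AMG.

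Summed over the 10 genes, the level was 3403 ± 15.8 TPM in PC9, 3480 ± 42.2 TPM in PC9-BrM4 and 4122 ± 245 TPM in PC9-AMG, or 0.3403%, 0.348% and 0.412% of all TPM. The libraries were at 3414 and 3392 TPM in PC9, 3450 and 3510 TPM in PC9-BrM4, and 4295 and 3948 TPM in PC9-AMG. The sum was thus high in both PC9-AMG libraries, and the PC9-AMG libraries also lay furthest apart. In PC9-AMG, 9 of the 10 genes were higher in replicate 1 than in replicate 2, with a median difference of 0.18 log2 units, against 60.8% and 0.03 over all tested genes. The counts were 5 of 10 in PC9 and 4 of 10 in PC9-BrM4. Each library was therefore left out in turn, and the calls that changed are given beside each gene.

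**Figure D2:**
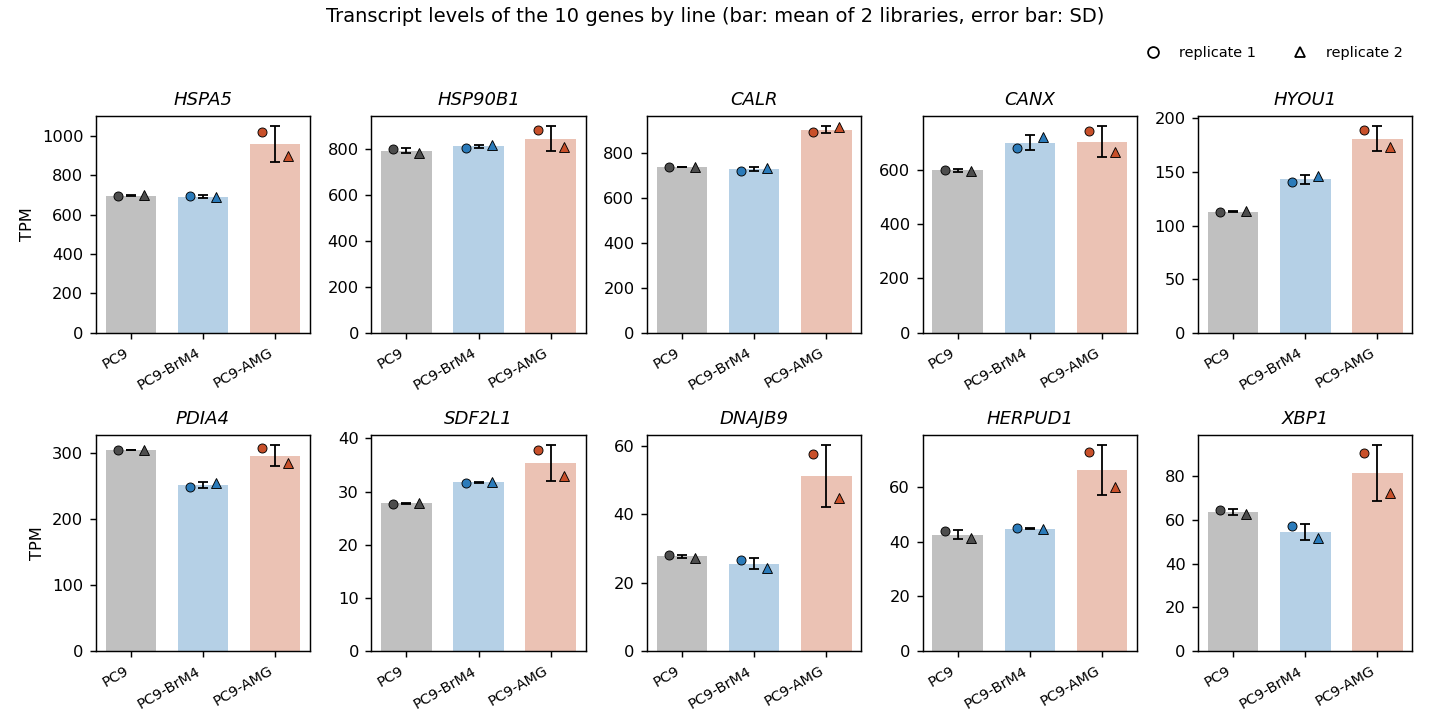
Levels of the 10 genes in TPM, in a panel for each gene on a linear axis. Each library is a point, and a bar gives the mean with its SD for each line. DNAJB9, HERPUD1, HYOU1 and HSPA5 stand higher in both PC9-AMG libraries than in the other 4, while HSP90B1 and PDIA4 stay close to their PC9 level there.

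PC9-AMG was first compared with PC9, to ask how this subline differs from its parental line in culture. Of the 10 genes 8 rose, 0 fell and 2 (HSP90B1, PDIA4) did not pass. Over all tested genes 27.8% were called higher and 27.7% lower. Calls were made in limma on log2(TPM + 1), at a p of 0.05 adjusted over all tested genes (Benjamini-Hochberg). The libraries did not overlap for 9 of the 10 genes, against 79.8% of tested genes. The median log2 fold change of the 10 was 0.34, beside -0.01 over tested genes. Among the 7260 genes that averaged 20 TPM or more, as all 10 did, 31.8% were called higher and 29.8% lower.

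DNAJB9 (ERdj4), a J-domain co-chaperone that partners HSPA5 and restrains IRE1 (chromosome 7, 108569745 to 108574850, hg38, plus strand), changed most. It was at 28.1 and 27.4 TPM in PC9 and at 57.7 and 44.8 TPM in PC9-AMG. Both PC9-AMG libraries lay well above the others, with replicate 1 the higher. The ratio of mean TPM was 1.85-fold, and the fit on log2(TPM + 1) gave log2 0.85 (SE 0.11, 95% interval 0.60 to 1.11, limma adjusted p = 0.000535). The gene overlaps THAP5 on the opposite strand by 24 bases. Its promoter, printed above, held neither element.

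HYOU1 (GRP170), a large chaperone and nucleotide exchange factor for HSPA5 (chromosome 11, 119044185 to 119057246, minus strand), was at 113 and 113 TPM in PC9 and at 189 and 173 TPM in PC9-AMG. It was 1.60-fold higher (log2 0.68, SE 0.05, 95% interval 0.55 to 0.80, limma adjusted p = 5.70e-05), the smallest adjusted p of the 10 in this comparison. The groups did not overlap, and the gap between the lines exceeded the gap between the PC9-AMG libraries. Its promoter carries the pair of ERSE-II shown above.

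HERPUD1, a membrane protein that brings together the degradation machinery of the ER (chromosome 16, 56932090 to 56943881, plus strand), was at 43.7 and 41.4 TPM in PC9 and at 72.6 and 59.7 TPM in PC9-AMG. Both PC9-AMG libraries were the higher ones. It was 1.55-fold higher (log2 0.62, SE 0.09, limma adjusted p = 0.000794), with no overlap.

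HSPA5 itself (chromosome 9, 125234848 to 125241387, minus strand) was at 695 and 698 TPM in PC9, which are nearly level, and at 1022 and 896 TPM in PC9-AMG. It was 1.38-fold higher (log2 0.46, SE 0.06, 95% interval 0.32 to 0.60, limma adjusted p = 0.000583). Of its 115 tested neighbours on the same 10 Mb of chromosome 9, 72.2% were also higher in PC9-AMG, with a median of 0.17. With that regional median removed the log2 fold change of HSPA5 was 0.29, and the call was kept.

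SDF2L1, a partner of the HSPA5 co-chaperone DNAJB11 (chromosome 22, 21642253 to 21644299, plus strand), was at 27.7 and 27.9 TPM in PC9 and at 37.8 and 33.0 TPM in PC9-AMG (log2 0.33, SE 0.07, limma adjusted p = 0.00551). CALR, the soluble lectin chaperone and a main calcium-binding protein of the ER (chromosome 19, 12938600 to 12944490, plus strand), was at 738 and 739 TPM in PC9 and at 894 and 915 TPM in PC9-AMG (log2 0.29, SE 0.04, limma adjusted p = 0.000464). CALR was the one of the 10 that was not higher in replicate 1 of PC9-AMG. Neither gene overlapped between the lines.

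XBP1 (chromosome 22, 28794560 to 28800572, minus strand) was at 64.4 and 62.5 TPM in PC9 and at 90.4 and 72.2 TPM in PC9-AMG. Both PC9-AMG libraries were higher, but replicate 2 lay closer to PC9 than to replicate 1. It was 1.28-fold higher (log2 0.34, SE 0.10, 95% interval 0.11 to 0.58, limma adjusted p = 0.0212). The call ended without PC9-AMG replicate 1 (log2 0.18), without PC9 replicate 1 (0.37), without PC9 replicate 2 (0.32) and without the filter on low values (0.34).

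CANX, the membrane-bound lectin chaperone (chromosome 5, 179698929 to 179731638, plus strand), was at 601 and 595 TPM in PC9 and at 743 and 664 TPM in PC9-AMG (log2 0.23, SE 0.06, limma adjusted p = 0.0114). Of 70 neighbours on its 10 Mb of chromosome 5, 82.9% were higher in PC9-AMG too, with a median of 0.24. With that median removed CANX stood at 0.01 and was not called, so its rise cannot be told apart from that of its region. The call also ended without PC9 replicate 2 (log2 0.23) and without PC9-AMG replicate 1 (0.15).

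HSP90B1 (chromosome 12, 103930334 to 103947930, plus strand) was at 799 and 782 TPM in PC9 and at 880 and 806 TPM in PC9-AMG. The libraries did not overlap, yet the difference did not pass (log2 0.09, SE 0.05, 95% interval -0.02 to 0.21, limma adjusted p = 0.145). Without PC9-AMG replicate 2 it passed, at 0.16. A near-identical copy, HSP90B2P, was listed at 13.8 to 18.7 TPM over the libraries, so reads could be shared between them. PDIA4 (ERp72), a disulfide isomerase (chromosome 7, 149003062 to 149028690, minus strand), was at 304 and 305 TPM in PC9 and at 307 and 284 TPM in PC9-AMG, which overlap (log2 -0.04, 95% interval -0.15 to 0.07, limma adjusted p = 0.457). Both intervals lie below those of DNAJB9, HYOU1 and HERPUD1.

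**Figure D3:**
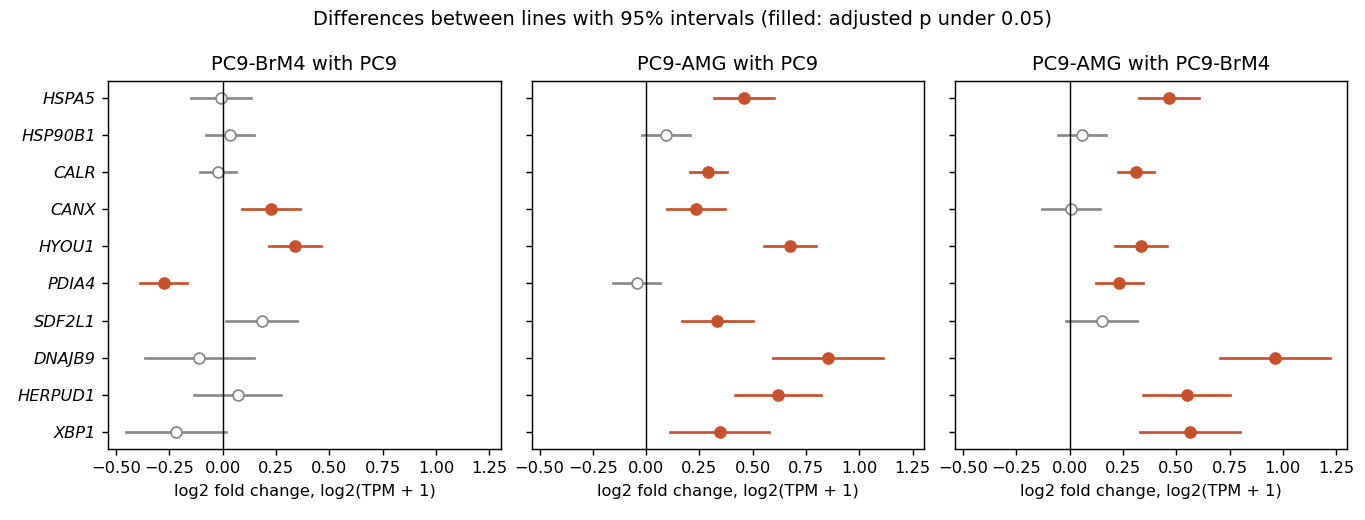
Log2 fold changes of the 10 genes with 95% intervals from limma in each of the 3 comparisons, filled where the adjusted p passed 0.05. In PC9-AMG 8 genes were called higher than in PC9 and 7 higher than in PC9-BrM4, beside 27.8% and 28.1% of tested genes. In PC9-BrM4 2 were called higher than in PC9 and 1 lower, beside 23.4% and 23.1% of tested genes.

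PC9-BrM4 was compared with PC9 in the same way, to ask how the brain-seeking subline differs from the parental line. Of the 10 genes 2 rose (HYOU1, CANX), 1 fell (PDIA4) and 7 did not pass, where 23.4% of tested genes were called higher and 23.1% lower. Libraries did not overlap for 9 of the 10, with HSPA5 the exception, against 75.2% of tested genes. The median of the 10 was 0.01, beside -0.00160 over tested genes. Among genes of at least 20 TPM, 30.4% were called higher and 22.0% lower. The share of the 10 called in either direction was thus near or below the background here.

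HYOU1 was at 140 and 146 TPM in PC9-BrM4, above both PC9 libraries (log2 0.34, SE 0.05, limma adjusted p = 0.00162). Of 70 neighbours on its 10 Mb of chromosome 11, 78.6% were higher, and with their median removed HYOU1 stood at 0.19 and was still called. PDIA4 was at 248 and 254 TPM, below both PC9 libraries (log2 -0.28, SE 0.05, limma adjusted p = 0.00244). Of 58 neighbours on its 10 Mb of chromosome 7, 77.6% were lower, and with their median removed PDIA4 stood at -0.15 and was still called.

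CANX was at 680 and 720 TPM in PC9-BrM4 (log2 0.23, SE 0.06, limma adjusted p = 0.0157). As in PC9-AMG, its neighbours on chromosome 5 were mostly higher, 80.0% of 70, and with their median of 0.24 removed CANX stood at 0.02 and was not called. The call also ended without the filter, in limma without a trend (both 0.23), and without PC9 replicate 1 (0.23), PC9 replicate 2 (0.22) or PC9-BrM4 replicate 2 (0.19).

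HSPA5 was level, at 696 and 688 TPM in PC9-BrM4 (log2 -0.01, 95% interval -0.15 to 0.13, limma adjusted p = 0.913), an interval that does not reach the rise it had in PC9-AMG. CALR stood at 721 and 735 TPM (log2 -0.02, 95% interval -0.11 to 0.06), and HSP90B1 at 804 and 815 TPM (log2 0.03, 95% interval -0.08 to 0.15). CALR was called lower, at -0.16, with the regional median removed.

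XBP1 was at 57.1 and 51.8 TPM in PC9-BrM4, below both PC9 libraries (log2 -0.22, 95% interval -0.45 to 0.02, limma adjusted p = 0.112). It passed as lower where PC9 and PC9-BrM4 were fitted alone and without either PC9-AMG library, with the same log2 value of -0.22. SDF2L1 was at 31.6 and 31.8 TPM, above both PC9 libraries (log2 0.18, 95% interval 0.02 to 0.35, limma adjusted p = 0.0688). It passed as higher in the same 3 settings (0.18), with median-ratio scaling (0.19) and with the regional median removed (0.21). DNAJB9, at 26.8 and 24.5 TPM (log2 -0.11, limma adjusted p = 0.448), and HERPUD1, at 44.8 and 44.6 TPM (log2 0.07, limma adjusted p = 0.542), did not pass.

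The comparison of PC9-AMG with PC9-BrM4 tests whether the sublines differ from each other, and so whether their differences from PC9 differ. Of the 10 genes 7 were higher in PC9-AMG, 0 were lower and 3 (CANX, HSP90B1, SDF2L1) did not pass, with 28.1% of tested genes called higher and 28.0% lower. Among genes of at least 20 TPM the shares were 28.2% and 33.3%. Libraries did not overlap for 8 of the 10, against 77.5% of tested genes, and the median of the 10 was 0.32, beside -0.01. This comparison shares the PC9-AMG libraries with the comparison with PC9, so the counts are not independent of each other.

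DNAJB9 was 2.00-fold higher in PC9-AMG than in PC9-BrM4 (log2 0.96, SE 0.11, limma adjusted p = 0.000262). XBP1 was 1.49-fold higher (log2 0.56, SE 0.10, 95% interval 0.33 to 0.80, limma adjusted p = 0.00227). For XBP1 the PC9 libraries lay between those of the sublines, above PC9-BrM4 and below PC9-AMG. HERPUD1 was 1.48-fold higher (log2 0.55, limma adjusted p = 0.00128) and HSPA5 1.39-fold higher (log2 0.47, limma adjusted p = 0.000463). Of the 115 neighbours of HSPA5, 73.9% were higher too, with a median of 0.21. With that median removed HSPA5 stood at 0.26 and was still called.

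HYOU1 was 1.27-fold higher (log2 0.34, limma adjusted p = 0.00119), which places PC9-BrM4 between PC9 and PC9-AMG for this gene. CALR was 1.24-fold higher (log2 0.31, limma adjusted p = 0.000289). PDIA4 was 1.18-fold higher (log2 0.23, limma adjusted p = 0.00404), but with the regional median removed it stood at 0.07 and was not called. SDF2L1 (log2 0.15, limma adjusted p = 0.109), HSP90B1 (0.06, 95% interval -0.06 to 0.17) and CANX (0.01, 95% interval -0.13 to 0.14) did not pass, although SDF2L1 passed without PC9-AMG replicate 2 (0.25).

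**Figure D4:**
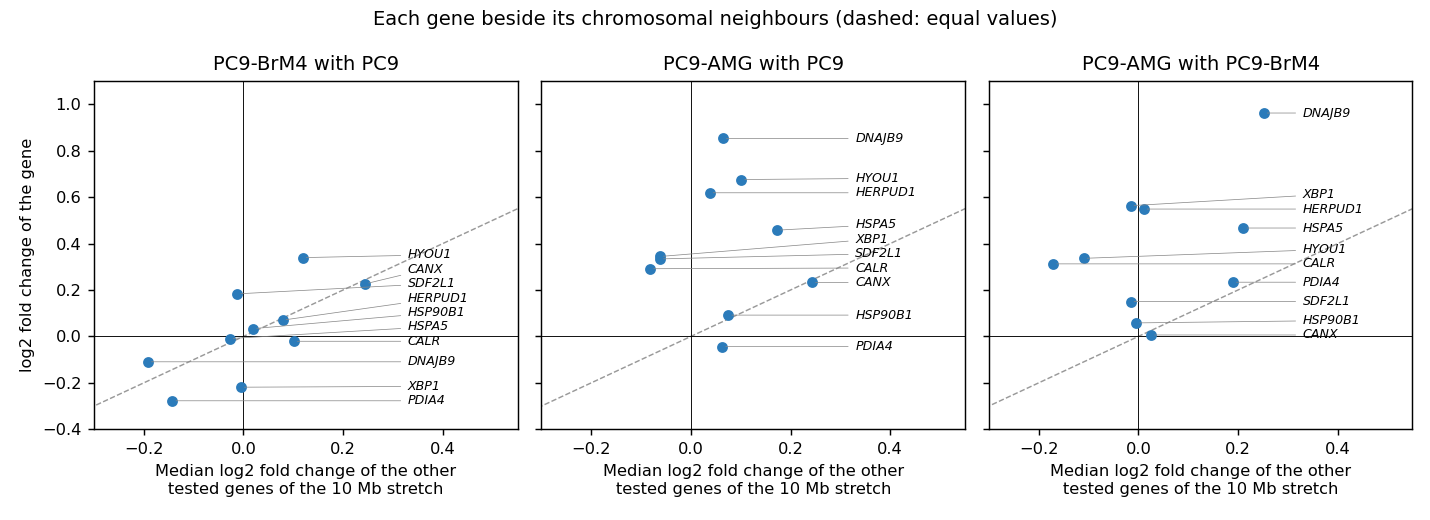
Log2 fold change of each of the 10 genes against the median of the other tested genes on its 10 Mb of chromosome. Each of the 3 comparisons has a panel, with the line of equality dashed. CANX lies on the line in both sublines compared with PC9 (median 0.24). In PC9-AMG compared with PC9, DNAJB9, HERPUD1 and HYOU1 lie well above regional medians of 0.04 to 0.10.

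The other genes of the pathway were followed in 8 lists of 160 genes, of which 155 were tested. In PC9-AMG compared with PC9, 53 of the 155 rose and 28 fell, with a median of 0.07, beside 27.8% and 27.7% of tested genes. PC9-BrM4 had 27 higher and 38 lower than PC9 (median -0.04), beside 23.4% and 23.1% of tested genes. Between the sublines, 63 were higher and 21 lower in PC9-AMG (median 0.11), beside 28.1% and 28.0% of tested genes. The lists were chosen with earlier results of these data known and are given as counts. Below, background means the share of all tested genes called higher and lower. It was 27.8% and 27.7% in PC9-AMG and 23.4% and 23.1% in PC9-BrM4, each compared with PC9.

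**Figure D5:**
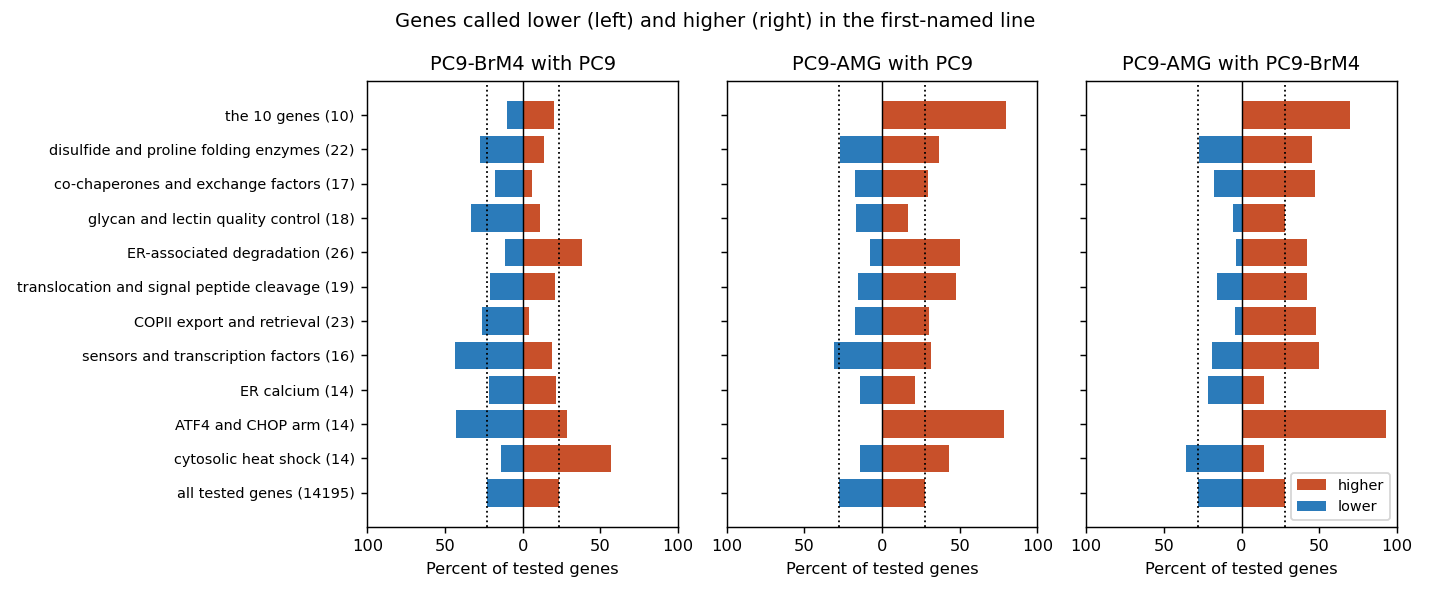
Percent of the tested genes of each list called higher and lower for the 3 comparisons, with the number tested in parentheses. Dotted lines mark the shares over all tested genes. ER-associated degradation has 13 genes higher and 2 lower in PC9-AMG compared with PC9, and the ATF4 and CHOP list 11 higher and 0 lower.

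Genes of ER-associated degradation pull misfolded chains back to the cytosol for the proteasome. In PC9-AMG, 13 of 26 were higher and 2 lower than in PC9 (median 0.17, background 27.8% and 27.7%). SYVN1 (HRD1), the ubiquitin ligase at the centre of the machinery, rose from 45.4 ± 1.81 to 67.1 ± 2.04 TPM. UBE2J2, of the same list, rose from 40.5 ± 0.432 to 59.1 ± 1.71 TPM. UFD1L and UBXN4, which work with the VCP segregase, were those that fell, at -0.26 and -0.25 on the log2 scale. Both lost their call with the regional median removed (-0.12 and -0.15). PC9-BrM4 had 10 higher and 3 lower compared with PC9 (background 23.4% and 23.1%). UBE2J2 was among those that rose, at 58.5 ± 5.53 TPM, and the lectin OS9, which hands glycoproteins to SYVN1, fell from 91.1 ± 0.675 to 56.0 ± 1.55 TPM. Of the 147 neighbours of OS9 on chromosome 12, 91.2% were lower too, with a median of -0.49, and with that removed OS9 stood at -0.21 and was still called.

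Translocation and signal peptide genes bring chains into the ER. In PC9-AMG, 9 of 19 were higher and 3 lower than in PC9 (median 0.15, background 27.8% and 27.7%). SRPRB, the membrane anchor of the signal recognition particle receptor, rose from 59.6 ± 1.19 to 92.0 ± 5.44 TPM, and SEC11C, a signal peptidase subunit, from 53.9 ± 0.932 to 81.3 ± 5.68 TPM. SEC61A2 (-0.37), SEC62 (-0.22) and SEC11A (-0.15) fell on the log2 scale. With the regional median removed SEC61A2 turned to 0.16 and SEC62 to 0.02, and neither was called. The SEC61A2 call also ended without PC9 replicate 1 (-0.29), PC9-AMG replicate 1 (-0.38) or PC9-AMG replicate 2 (-0.35), and the SEC62 call without PC9 replicate 1 (-0.17) and without PC9-AMG replicate 2 (-0.16). The SEC11A call ended without either PC9 or either PC9-AMG library (-0.15 in each). PC9-BrM4 had 4 higher than PC9, led by SRPRB at 83.6 ± 3.32 TPM (SEC11C 0.22, TRAM2 0.40, SSR4 0.20), and 4 lower, led by SEC61B, a subunit of the channel, at 311 ± 19.0 against 380 ± 12.7 TPM. SEC61B and SSR4 lost their calls with the regional median removed (-0.19 and 0.05). The SSR4 call also ended without PC9 replicate 1 (0.15), and the SEC11C call without PC9 replicate 1 (0.20), PC9 replicate 2 (0.24) or PC9-BrM4 replicate 2 (0.19).

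The enzymes of disulfide bonds and proline isomers split in PC9-AMG compared with PC9. Of 22 tested, 8 were higher and 6 lower (median 0.07, background 27.8% and 27.7%). The prolyl isomerase FKBP11 rose from 15.5 ± 0.994 to 24.3 ± 0.729 TPM. P4HB, the main disulfide isomerase, rose from 739 ± 4.94 to 1088 ± 26.8 TPM, but 91.0% of its 67 neighbours at the end of chromosome 17 were higher too. With their median removed it stood at 0.12 and was not called. TMX4, a membrane-bound thioredoxin-like protein, fell from 12.1 ± 0.0667 to 6.80 ± 0.0648 TPM, and FKBP10, an isomerase of collagen folding, from 83.3 ± 2.38 to 62.4 ± 0.803 TPM. With the regional median removed FKBP10 stood at -0.27, against -0.41 before. PC9-BrM4 had 3 higher than PC9 (PRDX4 0.21, TMX4 0.21, TXNDC11 0.19) and 6 lower. The TMX4 call ended there without any 1 of the 6 libraries (0.19 to 0.23) and with the regional median removed (0.12). The PRDX4 call ended without PC9 replicate 1 (0.15), and its value was 0.40 with the regional median removed. The TXNDC11 call ended without any 1 of the 4 libraries compared (0.14 to 0.24) and with the regional median removed (0.12).

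Co-chaperones and exchange factors had 5 of 17 higher and 3 lower in PC9-AMG compared with PC9 (median 0.02, background 27.8% and 27.7%). DNAJB11 (ERdj3), which loads chains onto HSPA5, rose from 184 ± 0.573 to 288 ± 19.6 TPM. Of the 59 neighbours of DNAJB11 on chromosome 3, 74.6% were higher too, with a median of 0.21. With that removed DNAJB11 stood at 0.43, against 0.64 before, and was still called. DNAJC3 (p58IPK), another J-domain partner, rose from 21.8 ± 0.143 to 29.6 ± 4.59 TPM. Without PC9-AMG replicate 1 the difference of DNAJC3 was 0.26, against 0.42 with it. MANF (0.37), DNAJC25 (0.35) and SEC63 (0.20) were the others that rose. The DNAJC25 call ended without PC9 replicate 2 (0.34) or PC9-AMG replicate 1 (0.23), and the SEC63 call without PC9 replicate 1 (0.22), PC9 replicate 2 (0.17) or PC9-AMG replicate 1 (0.12). DNAJB14 (-0.65), CNPY4 (-0.30) and CNPY3 (-0.15) fell, and the CNPY4 call ended without PC9 replicate 1 (-0.33), PC9 replicate 2 (-0.28) or PC9-AMG replicate 1 (-0.20). Leaving out the same libraries ended the CNPY3 call (-0.13, -0.16 and -0.11). Compared with PC9, PC9-BrM4 had 1 gene of this list higher, DNAJB11 at 205 ± 5.88 TPM, and CNPY4 (-0.76), CNPY2 (-0.54) and CRELD1 (-0.42) lower. The DNAJB11 call ended without any 1 of the 4 libraries compared (0.13 to 0.19), and CNPY2 stood at -0.05 and was not called with the regional median removed.

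Glycan and lectin quality control genes had 3 of 18 higher (RPN1 0.30, STT3A 0.23, MOGS 0.21) and 3 lower (DAD1 -0.35, STT3B -0.21, MAN1B1 -0.18) in PC9-AMG compared with PC9. The background was 27.8% and 27.7%. RPN1 and STT3A belong to the enzyme that attaches glycans, and RPN1 rose from 372 ± 6.01 to 460 ± 7.80 TPM. The MOGS call ended without PC9 replicate 2 (0.20), and the MAN1B1 call without PC9 replicate 2 (-0.15) or PC9-AMG replicate 1 (-0.16). With the regional median removed DAD1 stood at -0.20 and MAN1B1 at -0.39, both still called. The STT3B call ended with the regional median removed (-0.12), without PC9 replicate 1 (-0.18) and without PC9-AMG replicate 2 (-0.15). Of the same genes 2 rose in PC9-BrM4 (LMAN2 0.21, RPN1 0.13) and 6 fell, led by DAD1 (-0.49, and -0.31 with the regional median removed). LMAN2 shares the stretch of chromosome 5 with CANX and stood at 0.0002 with the regional median removed, and its call ended without PC9 replicate 1 (0.15) or PC9-BrM4 replicate 1 (0.19). The RPN1 call ended with the regional median removed (0.12) and without PC9 replicate 1 (0.11), PC9 replicate 2 (0.15) or PC9-BrM4 replicate 2 (0.11).

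COPII export and retrieval genes carry folded cargo out and return escaped ER proteins. In PC9-AMG, 7 of 23 were higher and 4 lower than in PC9 (median 0.04, background 27.8% and 27.7%). SEC24D, a cargo adaptor of the coat, rose from 24.8 ± 0.555 to 38.4 ± 6.49 TPM, and MCFD2, a cargo receptor subunit, from 172 ± 5.73 to 244 ± 18.4 TPM. TMED10 fell from 448 ± 3.23 to 158 ± 8.98 TPM, beside 85.7% of 70 neighbours on chromosome 14 that were lower, with a median of -0.88. With that median removed TMED10 stood at -0.70 and was still called. TMED7 (-0.34), SEC23A (-0.32) and KDELR3 (-0.30) also fell, and the TMED7 call ended without PC9 replicate 1 (-0.29), without PC9-AMG replicate 2 (-0.17) and without the filter (-0.34). With the regional median removed neither TMED7 (-0.18) nor SEC23A (-0.06) was called. MCFD2 was also higher in PC9-BrM4, at 212 ± 9.55 TPM, where 6 of the list fell, led by KDELR3, a receptor that returns ER proteins, at 15.7 ± 0.540 against 30.1 ± 0.258 TPM.

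By the sensors and transcription factors the state of the ER reaches the nucleus. Of 16 tested, 5 were higher and 5 lower in PC9-AMG compared with PC9 (background 27.8% and 27.7%). ERN1, the kinase and nuclease that splices XBP1, was at 2.82 and 2.86 TPM in PC9, at 2.63 and 3.25 TPM in PC9-BrM4, and at 6.29 and 4.36 TPM in PC9-AMG. It rose in PC9-AMG compared with PC9 (log2 0.70, limma adjusted p = 0.00680), with both libraries above the other 4. Of 65 neighbours on its stretch of chromosome 17, 89.2% were higher with a median of 0.35, and with that removed ERN1 stood at 0.39 and was not called. ATF6 was at 21.0 and 18.5 TPM in PC9, at 18.9 and 20.2 TPM in PC9-BrM4, and at 20.5 and 17.7 TPM in PC9-AMG. The libraries of all 3 lines overlapped for ATF6, with 95% intervals of -0.23 to 0.21 for PC9-BrM4 and -0.27 to 0.17 for PC9-AMG compared with PC9.

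EIF2AK3, which encodes PERK, was at 14.4 and 13.7 TPM in PC9, at 12.2 and 12.1 TPM in PC9-BrM4, and at 17.9 and 15.6 TPM in PC9-AMG. It rose in PC9-AMG compared with PC9 (log2 0.24, limma adjusted p = 0.0416), a call near the threshold that ended in 7 of the 17 other settings. These were the fit without the filter and that of PC9 and PC9-AMG alone (both 0.24), and the fits without PC9 replicate 1 (0.27), PC9 replicate 2 (0.20), PC9-BrM4 replicate 1 or 2 (both 0.24) and PC9-AMG replicate 1 (0.14). WFS1, an ER membrane protein that restrains ATF6, rose from 42.4 ± 2.29 to 69.6 ± 0.341 TPM, and NFYC, a subunit of NF-Y, which binds the first box of ERSE, from 79.9 ± 4.27 to 128 ± 1.11 TPM. Of the 106 neighbours of NFYC on chromosome 1, 84.9% were higher, with a median of 0.42, and with that removed NFYC stood at 0.24 and was still called. The other subunits, NFYA (-0.44) and NFYB (-0.15), fell. CREB3 rose (0.17), and CREB3L4 (-0.64), MBTPS1, the protease that cuts ATF6 (-0.49), and TMBIM6 (-0.14) fell. MBTPS1 stood at -0.30 with the regional median removed. The calls of NFYB (-0.18 to -0.12) and CREB3 (0.12 to 0.22) ended without any 1 of the 4 libraries compared, and CREB3 was also not called with the regional median removed (0.16). The TMBIM6 call ended with the regional median removed (-0.07) and without PC9 replicate 1 (-0.13), PC9 replicate 2 (-0.14) or PC9-AMG replicate 2 (-0.13).

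Of the 16 sensors and factors 3 rose in PC9-BrM4 compared with PC9 (WFS1 0.53, NFYC 0.30, NFYB 0.22) and 7 fell, led by TMBIM6, a modulator of IRE1, from 926 ± 5.68 to 603 ± 9.31 TPM. Of the 61 neighbours of TMBIM6 on chromosome 12, 88.5% were lower, with a median of -0.39, and with that removed it stood at -0.23 and was still called. NFYC stood at 0.18 with the regional median removed, and the NFYB call ended without PC9 replicate 2 (0.19). Compared with PC9-BrM4, PC9-AMG had 8 of the 16 higher and 3 lower (background 28.1% and 28.0%). ERN1 (0.67) and EIF2AK3 (0.43) were among the higher, and NFYB (-0.37) and CREB3L4 (-0.27) among the lower. The ERN1 call ended there without PC9-BrM4 replicate 1 (0.56) and with the regional median removed (0.35). Of 14 ER calcium genes tested, 3 were higher in PC9-AMG than in PC9 (NUCB2 0.46, RCN1 0.17, NUCB1 0.15). Lower were 2, RCN2 (-0.54) and CALU (-0.23), and the background was 27.8% and 27.7%. The NUCB2 call ended without PC9 replicate 2 (0.32) and PC9-AMG replicate 1 (0.39), the RCN1 call without PC9 replicate 2 (0.11) and PC9-AMG replicate 1 (0.14), and the CALU call without 5 libraries: PC9 replicate 1 (-0.24), PC9 replicate 2 (-0.22), PC9-BrM4 replicate 1 or 2 (both -0.23) and PC9-AMG replicate 2 (-0.11). Without PC9-AMG replicate 1 CALU stood at -0.35 and was called. The CALU call also ended with the regional median removed (-0.13) and, at -0.23 each, without the filter, in limma without a trend, in the fit of PC9 and PC9-AMG alone and with the replicate block. NUCB1 turned to -0.26 and was called lower with the regional median removed, on a stretch of chromosome 19 that it shares with PPP1R15A. Its call ended without PC9 replicate 1 (0.14), PC9 replicate 2 (0.16) or PC9-AMG replicate 2 (0.13), with quantile normalization (0.11) and in limma without a trend (0.15). In PC9-BrM4, 3 of the 14 calcium genes were higher and 3 lower than in PC9 (background 23.4% and 23.1%). ITPR3 rose there from 71.3 ± 1.17 to 123 ± 19.8 TPM and STIM1 from 21.3 ± 0.123 to 35.5 ± 1.14 TPM. CALU (-0.33) and RCN2 (-0.22) were among those that fell, and CALU turned to 0.02 with the regional median removed.

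Genes known as targets of the arm that runs through PERK, ATF4 and CHOP were followed as a further list. Of 14 tested genes 11 rose, 0 fell and 3 did not pass in PC9-AMG compared with PC9 (median 0.79, background 27.8% and 27.7%). ATF4 was at 484 and 493 TPM in PC9 and at 467 and 406 TPM in PC9-BrM4. In PC9-AMG it was at 625 and 598 TPM, above all 4 others (log2 0.32 compared with PC9, limma adjusted p = 0.00436). DDIT3 was at 42.5 and 44.8 TPM in PC9, at 37.2 and 32.5 TPM in PC9-BrM4, and at 96.9 and 77.3 TPM in PC9-AMG (log2 0.97, limma adjusted p = 0.000268). ATF3 rose from 6.92 ± 0.0315 to 34.7 ± 4.58 TPM (log2 2.17), and PPP1R15A (GADD34), which reverses the block of translation, from 33.7 ± 1.40 to 112 ± 13.2 TPM (log2 1.70). Of the 237 neighbours of PPP1R15A on chromosome 19, 87.3% were higher, with a median of 0.41, and with that removed it stood at 1.29 and was still called. Amino acid shortage and oxidative stress also drive these genes through other kinases than PERK, as background.

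Compared with PC9, PC9-BrM4 had among these 14 genes 4 higher (ASNS 0.85, TRIB3 0.72, VLDLR 0.23, SLC3A2 0.14) and 6 lower (median -0.18). The background was 23.4% and 23.1%. The VLDLR call ended without any 1 of the 6 libraries (0.22 to 0.25), and the SLC3A2 call without PC9 replicate 1 (0.13), PC9 replicate 2 (0.15) or PC9-BrM4 replicate 2 (0.11) and with the regional median removed (0.02). Among those that fell, SLC7A11 went from 156 ± 6.85 to 83.5 ± 4.50 TPM and DDIT4 from 251 ± 11.5 to 141 ± 3.28 TPM. They stood at -0.93 and -0.77 with the regional median removed, and both were still called. DDIT3 was also among those that fell (log2 -0.32, limma adjusted p = 0.0452). With the regional median removed it turned to 0.16, and the call also ended without any 1 of the PC9 or PC9-BrM4 libraries (-0.41 to -0.22), without the filter and in limma without a trend (both -0.32). The cytosolic heat shock genes are the counterparts of the ER chaperones outside the ER. Of 14, 6 rose and 2 fell in PC9-AMG compared with PC9 (median 0.10, background 27.8% and 27.7%). HSPB1, a small heat shock protein, rose from 233 ± 3.70 to 730 ± 53.3 TPM. HSP90AA1, the cytosolic relative of HSP90B1, fell from 5096 ± 10.7 to 1562 ± 32.7 TPM (log2 -1.71), and HSPH1 fell too (-0.41) but turned to 0.0094 with the regional median removed. PC9-BrM4 had 8 higher than PC9, led by BAG3 (0.64), while HSPH1 (-0.46) and HSPB1 (-0.29) fell, with calls that ended when the regional median was removed (-0.08 and -0.16).

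Of the 44 genes with ERSE or ERSE-II in a window, 36 are not among the 10, and 22 of these were tested, of which 3 are in the lists above. In PC9-AMG compared with PC9, 7 of the 22 rose and 4 fell (median 0.06), beside 27.8% and 27.7% of all tested genes. In PC9-BrM4 compared with PC9, 3 rose and 6 fell, beside 23.4% and 23.1% of all tested genes. This count was chosen after the values were seen. FICD, the enzyme that adds and removes AMP on HSPA5, was among those that rose in PC9-AMG, from 3.27 ± 0.109 to 5.87 ± 1.81 TPM (log2 0.66, limma adjusted p = 0.0123). Without PC9-AMG replicate 1 the difference was 0.39 and still called. PDIA6, CRELD2 and SERP1, ER proteins with ERSE, did not pass in PC9-AMG, at 418 against 398, 55.3 against 54.0, and 198 against 194 TPM.

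The mean standardized log2 level of the 10 genes was -0.54 and -0.63 in the PC9 libraries and -0.46 and -0.39 in those of PC9-BrM4. The PC9-AMG libraries stood apart, at 1.47 and 0.56. Among 3937 other tested genes that averaged 10 TPM or more and ranged over at least 0.5 log2 units, those most like this pattern were MPZL3, FAM84B, HSPA13, MAFF and MORC4, with Pearson correlations of 0.998, 0.997, 0.995, 0.993 and 0.991. The correlation runs over 6 libraries of 3 lines, which share their sources, and 124 of the 3937 genes exceeded 0.95, so it is a description of order. HSPA13, an HSP70 relative at the ER membrane, was at 41.4 and 41.2 TPM in PC9, 41.5 and 41.2 TPM in PC9-BrM4, and 66.3 and 53.8 TPM in PC9-AMG. It was high in PC9-AMG and highest in its replicate 1.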

How the data were processed

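Messenger RNA of PC9, PC9-BrM4 and PC9-AMG was sequenced from 2 libraries each, with the TruSeq Stranded mRNA kit per the labels' protocols. The authors deposited 1 table per library with TPM, FPKM and coverage per gene, per the file headers. FPKM was deposited per length and per library total, TPM was deposited scaled to a fixed total, and the deposited coverage is the mean signal over a gene. HISAT2 2.1.0, StringTie 1.3.4d, bcl2fastq and the build hg38 are listed per the submitters' processing notes. Annotation, mapping options and strand setting were not given in the sources used here. Left out was a series-wide table, whose columns do not carry the PC9-AMG titles. TPM is relative: a rise of abundant genes lowers the others.

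Rows of a symbol were summed. Aligned bases were estimated from coverage over FPKM, and read counts could not be recovered. Genes with TPM of at least 1 in at least 2 libraries were tested on log2(TPM + 1) in limma 3.58.1 (R 4.3.3), fitting 1 mean per line over all 6 libraries with a mean-variance trend, which leaves 3 residual degrees of freedom. Log2 fold changes on this scale understate those of low genes. Values given as fold are ratios of mean TPM, whereas log2 values, SEs, intervals and p-values are those of the fit. P-values were adjusted by Benjamini-Hochberg over all 14195 tested genes, with a threshold of 0.05. The fit was tested on simulated data. Another 17 settings were run, among them removal of the regional median (the median of the other tested genes on the same 10 Mb, where more than 5 are tested) and leaving out each library. Same-numbered replicates did not deviate together (correlations of -0.07, -0.03 and -0.06 between lines). The labels do not say whether the numbers mark a shared culture or day, and these correlations cannot exclude it. The main fit did not use the number as a block.

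The 10 genes and the lists were chosen with earlier results of these data known. Per list and comparison, up to 2 called genes in each direction were picked, and some of these, not all, are named beside the 10. They have the largest change among those that average 10 TPM or more in the higher line and do not overlap. Also named are 5 fixed genes (ERN1, ATF6, EIF2AK3, ATF4, DDIT3), the 5 most similar genes and the members of counts of 5 or fewer in PC9-AMG compared with PC9. Members of such counts in PC9-BrM4 compared with PC9 are named for some of the lists. Genes named outside this rule were chosen after their values were seen. Promoter sequences are from RefSeq, GRCh38.p14.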

Additional observations from a re-analysis of the deposited data

How the results depend on the processing

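Over 17 other settings, 477 of 510 values of the 10 genes kept their direction and their side of the threshold, 14 lost the call, 11 gained it and 8 changed sign. Of the 10 genes, 8 were called in PC9-AMG compared with PC9, with 6 to 9 when a library was left out, and 7 compared with PC9-BrM4, with 7 to 8. For PC9-BrM4 and PC9 the count was 3, with 5 where these lines were fitted alone and 2 to 5 when a library was left out. The other genes of the pathway called between PC9-BrM4 and PC9 were 65, with 37 to 66 when a library was left out (37 without PC9 replicate 1, 42 without PC9 replicate 2). With the replicate number as a replicate block, 8 of the 10 genes were called in PC9-AMG compared with PC9, 7 compared with PC9-BrM4, and 3 between PC9-BrM4 and PC9. The other genes of the pathway called under the block were 73, 82 and 59 in the same order.

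Values that changed sign were those of small differences or of genes in shifted stretches. For PC9-BrM4 compared with PC9, HSPA5 stood at 0.0154 with quantile normalization. Removing the regional median gave 0.0247 for HSPA5, 0.0819 for DNAJB9, 0.0791 for ATF6, 0.0197 for CALU and 0.1643 for DDIT3. Leaving out a library gave -0.0965 to 0.0744 for ATF6 and -0.0814 to 0.1435 for ERN1. For PC9-AMG compared with PC9, the regional setting gave 0.0135 for ATF6, 0.0094 for HSPH1, 0.0211 for SEC62, 0.1593 for SEC61A2 and -0.2626 for NUCB1, and leaving out a library gave -0.0997 to 0.0123 for PDIA4 and -0.1490 to 0.0498 for ATF6. For PC9-AMG compared with PC9-BrM4, the regional setting gave -0.0082 for CANX, -0.2596 for NUCB1 and 0.0311 for SEC61A2, and leaving out a library gave -0.0052 to 0.1216 for HSP90B1, -0.0748 to 0.0871 for CANX and -0.1379 to 0.0608 for ATF6. The cause was not tested.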
